A study of Mus musculus with 6 samples.

Results

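The 30 genes described here mark oligodendrocytes and the myelin they make, and all 30 symbols were found, each in 1 row of a table of 55450 genes. They were listed by name, and no value entered the rule, though earlier results of these data were known when the list was made. RNA of retina from C57BL/6 mice at 8 weeks of age was sequenced in 6 libraries. Of these, 3 carry the genotype name Myrf-kd, which the series describes as Myrf +/−, and 3 are wild type (WT). The labels do not say how the Myrf allele was made or which part of the gene it alters. Levels of Xist and of Y-linked genes put 1 female library in each group, Myrf-kd 3 and WT 3, beside 2 male ones. Depth ran from 12673773 fragments in WT 2 to 17574628 in WT 3. The labels do not say that the libraries are separate animals, so p-values measure the spread between these libraries, part of which may be technical.

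Oligodendrocytes wrap axons of the brain and the optic nerve in myelin, a stack of membrane held together by proteins such as myelin basic protein and rich in galactolipids. The factors Olig2, Olig1, Nkx2-2 and Sox10 specify the lineage, and Myrf, a membrane-anchored transcription factor, switches on the myelin genes in maturing cells. In the mouse, axons of retinal ganglion cells run without myelin inside the eye and are wrapped only behind it. Several genes of the list also have known roles in other cells: Plekhb1 is known from photoreceptors, Nfasc and Cntnap1 encode proteins of the axon itself, and Mal and Pllp encode membrane proteins of epithelia.

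Myrf itself had 45, 59 and 60 fragments in Myrf-kd 1, 2 and 3 (0.279, 0.382 and 0.351 FPKM). The 3 WT libraries had 58, 50 and 80 (0.359, 0.397 and 0.463 FPKM). FPKM are fragments scaled to transcript length and to library depth, so levels of different genes can be set side by side. The groups overlapped. The values do not check the labels, because fragments are summed over the whole gene.

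What the genes share in sequence was read from 300-base promoter windows of RefSeq (GRCm38.p6), which reach from 250 bases before a gene's start to 50 after it. The letters CTGGCAC and CTGGTAC, known as the core that Myrf protein binds, were searched on both strands. Of the 30 genes, 23 had a window, and 5 of them held a match (21.7%). Over all genes with a window, 2189 of 27025 held a match (8.10%). Counted by window, since a gene can have several, the shares were 6 of 33 (18.2%) and 2331 of 32851 (7.10%). The match lay 83 bases before the start in Mog, 81 before it in Cnp and 9 before it in Mag, where the same letters lie 68 bases before a second annotated start. It lay after the start in Opalin and Zfp488. The runs below show the 250 bases before the start, or the match with up to 10 bases on either side where it follows the start. They are written 5′ to 3′ on the strand of the gene, with the match in capitals.
Mog, chr17:37023399-37023648: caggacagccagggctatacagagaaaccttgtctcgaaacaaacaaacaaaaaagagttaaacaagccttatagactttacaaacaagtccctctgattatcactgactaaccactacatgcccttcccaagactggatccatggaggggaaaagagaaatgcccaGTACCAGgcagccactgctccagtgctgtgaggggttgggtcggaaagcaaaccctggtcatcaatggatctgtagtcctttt
Mag, chr7:30914923-30915172: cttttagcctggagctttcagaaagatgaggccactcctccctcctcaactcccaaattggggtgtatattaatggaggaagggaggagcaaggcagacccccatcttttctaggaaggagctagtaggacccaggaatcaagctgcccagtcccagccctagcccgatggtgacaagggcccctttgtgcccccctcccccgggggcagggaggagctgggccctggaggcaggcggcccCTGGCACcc
Cnp, chr11:100574689-100574938: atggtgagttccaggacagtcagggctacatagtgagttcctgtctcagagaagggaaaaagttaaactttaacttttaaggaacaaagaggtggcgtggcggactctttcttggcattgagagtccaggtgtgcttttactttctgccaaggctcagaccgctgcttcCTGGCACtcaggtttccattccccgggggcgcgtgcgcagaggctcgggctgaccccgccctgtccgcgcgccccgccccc
Opalin, chr19:41077064-41077087: aagacctgcaGTGCCAGtgagaga
Zfp488, chr14:33978737-33978763: ggacccgcagCTGGTACactcaacctg
In Mog and Opalin the capitals are the reverse complement of the searched letters. A match describes these letters only, and binding was not measured. The 5 genes differed widely in level: Cnp and Zfp488 were among the better measured genes of the list, while Mog, Mag and Opalin were near the limit of detection.

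The retina held the list at very uneven levels. Of the 30 genes, 11 had a mean of at least 1 FPKM over the 6 libraries, 5 lay between 0.1 and 1 FPKM, and 14 lay below 0.1 FPKM. Plekhb1 alone made up 54.4% of the summed FPKM, and Nfasc a further 17.2%. The lineage factors Olig1, Olig2 and Nkx2-2 were at the bottom. They had 0 fragments in each of the 6 libraries, and 7 further genes had fragments in some libraries and none in others. The other 20 had fragments in all libraries.

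**Figure D1:**
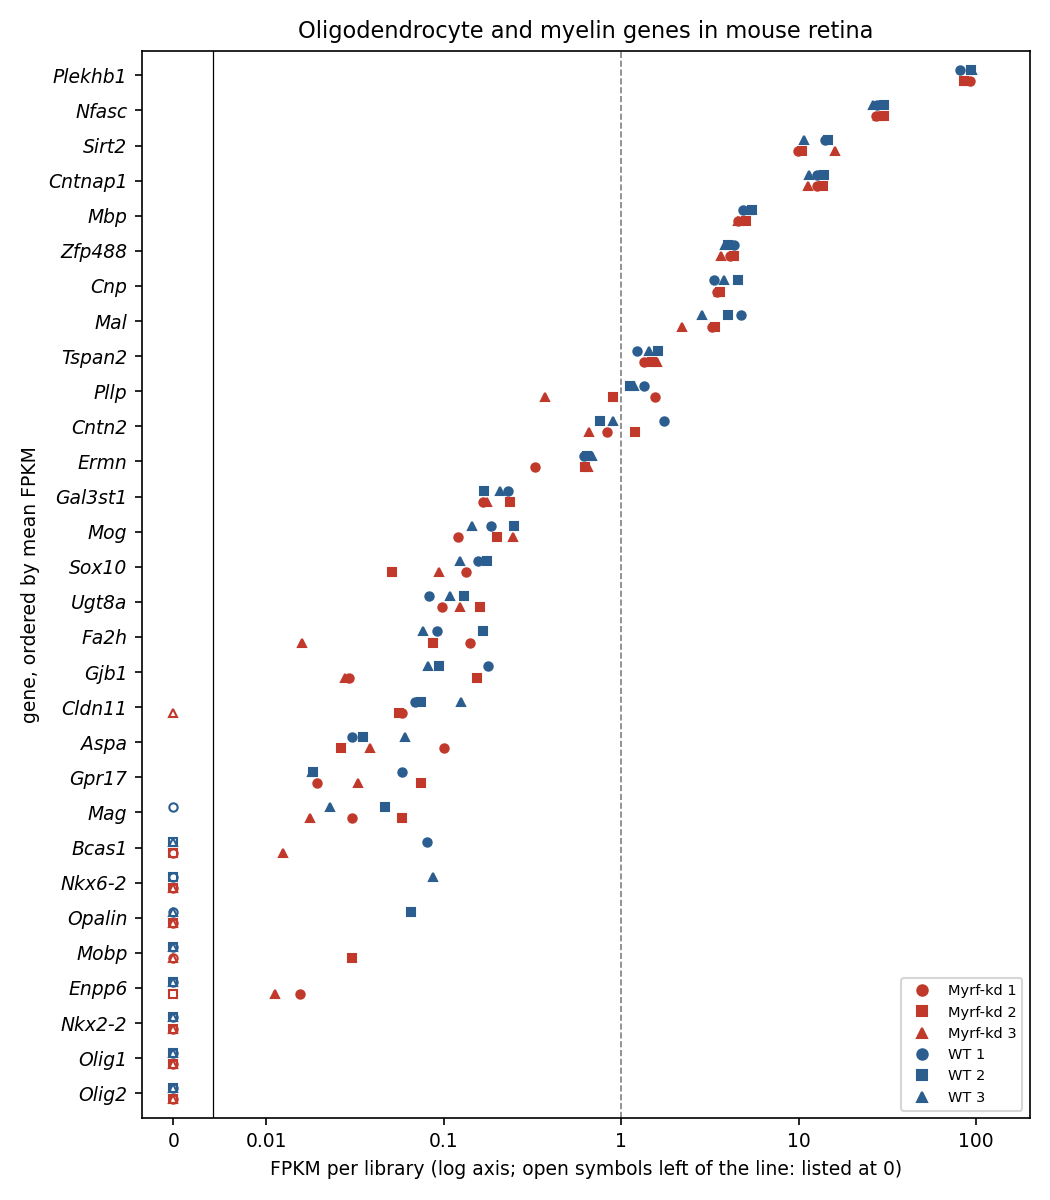
FPKM of the 30 genes (log axis, genes ordered by mean) in each library, Myrf-kd in red and WT in blue, with open symbols at the left for libraries listed at 0. Of the 30 genes, 11 lie at or above a mean of 1 FPKM (dashed line), from Plekhb1 down to Cntn2, and Olig1, Olig2 and Nkx2-2 are at 0 in all 6 libraries.

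Myrf-kd was compared with WT to ask whether the myelin genes that Myrf is known to drive differ in retina with 1 altered Myrf copy. None of the 11 testable genes passed: edgeR's quasi-likelihood test called 0 of 11 at an adjusted p under 0.05 (Benjamini-Hochberg over 13673 genes), where 0.0439% of all tested genes were called. Without adjustment, 0 of 11 had a p under 0.05, against 7.49% of all tested genes. DESeq2 called 0 of the 11 and 0.388% of all genes, and limma on log2(FPKM + 1) called 0 of the 11 and 0.0293% of all genes. Estimates were lower in Myrf-kd for 9 of 11 genes (10 of 11 by DESeq2 or with median-of-ratios scaling, 8 without Myrf-kd 3 and 7 without WT 2), against 49.0% of all tested genes. In bulk RNA, fewer cells of a type and less RNA per cell cannot be told apart. The median log2 fold change (Myrf-kd against WT) of the 11 was −0.13, beside 0.0041 over all genes tested. It was −0.031 without Myrf-kd 3 and −0.018 without WT 2. The groups overlapped in FPKM in all 11 genes, while they did not overlap in 14.5% of all tested genes. For 9 of the 11 the 95% interval of the ratio lay above 50% of WT, as it did for 93.7% of all tested genes. The exceptions were Pllp and Cntn2.

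**Figure D2:**
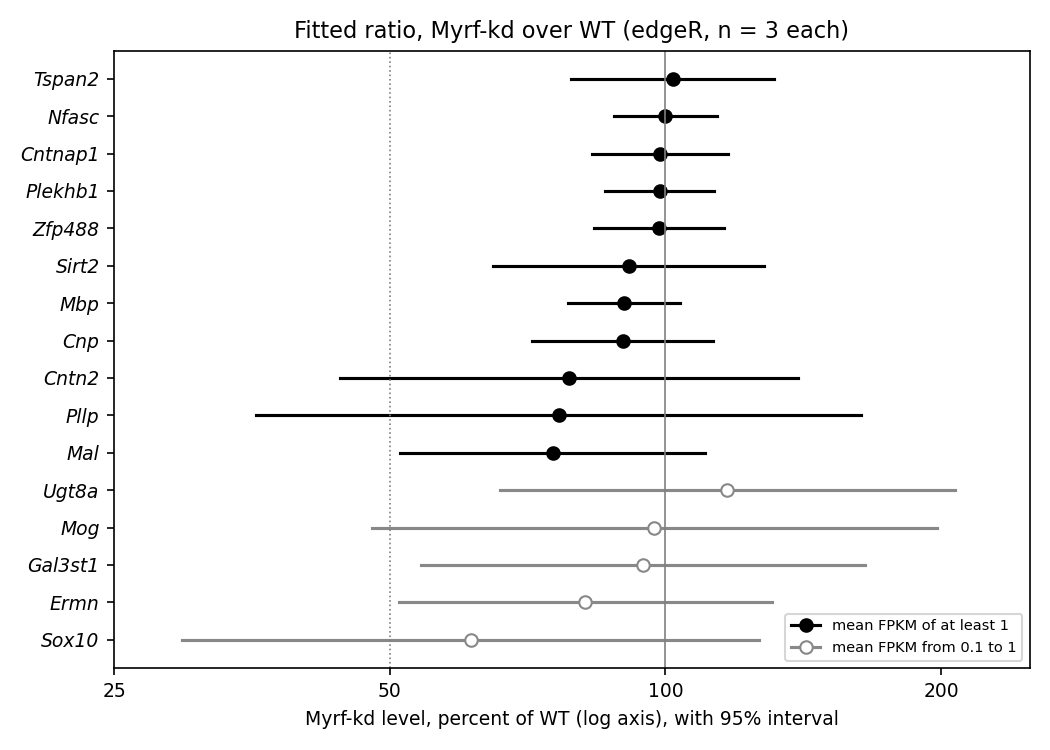
Fitted Myrf-kd level in percent of WT (log axis) with its 95% interval, for the 11 genes with a mean of at least 1 FPKM (filled) and 5 genes between 0.1 and 1 FPKM (open). Every interval includes 100%, and those of Pllp, Cntn2, Mog and Sox10 reach below 50% (dotted line).

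Of the 12 proteins of the myelin sheath, 5 were testable. Mbp (ENSMUSG00000041607, chromosome 18, 82475146 to 82585637, GRCm38) encodes myelin basic protein, which binds the inner faces of the membrane together. The same gene also encodes golli proteins, which are known from cells outside the oligodendrocyte lineage, and the table does not separate them. Mbp was at 4.53, 5.06 and 4.54 FPKM in Myrf-kd 1, 2 and 3, beside 4.83, 5.44 and 5.23 FPKM in WT 1, 2 and 3. Myrf-kd 2 lay above WT 1, so the groups overlapped by that pair. The fitted ratio of Mbp, Myrf-kd over WT, was 90.0%, and its 95% interval ran from 78.2% to 104% (adjusted p = 0.703 by edgeR).

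Cnp (ENSMUSG00000006782, chromosome 11, 100574904 to 100591729) encodes a phosphodiesterase that keeps channels of cytoplasm open in myelin. It was at 3.47, 3.61 and 3.55 FPKM in Myrf-kd 1, 2 and 3, beside 3.32, 4.55 and 3.80 FPKM in WT 1, 2 and 3. The WT libraries held both the lowest and the highest Cnp level. The fitted ratio of Cnp was 89.8%, from 71.5% to 113% (adjusted p = 0.783 by edgeR). Its exons share 154 bases with Dnajc7 on the opposite strand, a gene at 29.3 FPKM on average, and the sources used here do not say whether the libraries kept strand.

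Mal (ENSMUSG00000027375, chromosome 2, 127633226 to 127656695) encodes a proteolipid of myelin and of epithelial apical membranes. It was at 3.25, 3.35 and 2.21 FPKM in Myrf-kd 1, 2 and 3, beside 4.71, 3.998 and 2.86 FPKM in WT 1, 2 and 3. The female library was the lowest of each group, and the groups overlapped because WT 3 lay below both male Myrf-kd libraries. Within the male libraries and within the female ones, Mal was lower in Myrf-kd. The fitted ratio was 75.3%, from 51.3% to 110% (adjusted p = 0.703 by edgeR), and with sex as a covariate 75.4% (unadjusted p = 0.0126, adjusted p = 0.672 by edgeR).

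Pllp (ENSMUSG00000031775, chromosome 8, 94674894 to 94696278) encodes plasmolipin, a relative of Mal. It was at 1.55, 0.905 and 0.370 FPKM in Myrf-kd 1, 2 and 3, beside 1.34, 1.13 and 1.19 FPKM in WT 1, 2 and 3. Myrf-kd 1 was the highest of the 6 libraries and Myrf-kd 3 the lowest, while the WT libraries lay close together. The fitted ratio was 76.5%, from 35.7% to 164% (adjusted p = 0.831 by edgeR). Pllp exons share 1128 bases with Gm45767 on the opposite strand. In Myrf-kd, Gm45767 was at 3.52, 3.44 and 2.04 FPKM, and in WT at 3.30, 2.73 and 2.95 FPKM. Its lowest value was also that of Myrf-kd 3, so the level of Pllp is uncertain.

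Tspan2 (ENSMUSG00000027858, chromosome 3, 102734529 to 102801513), a tetraspanin of early myelinating cells, had Myrf-kd libraries at 1.34, 1.497 and 1.59 FPKM. The WT libraries were at 1.23, 1.62 and 1.44 FPKM, so Myrf-kd lay inside the range of WT. Its fitted ratio was 102%, from 78.8% to 132% (adjusted p = 0.974 by edgeR).

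**Figure D3:**
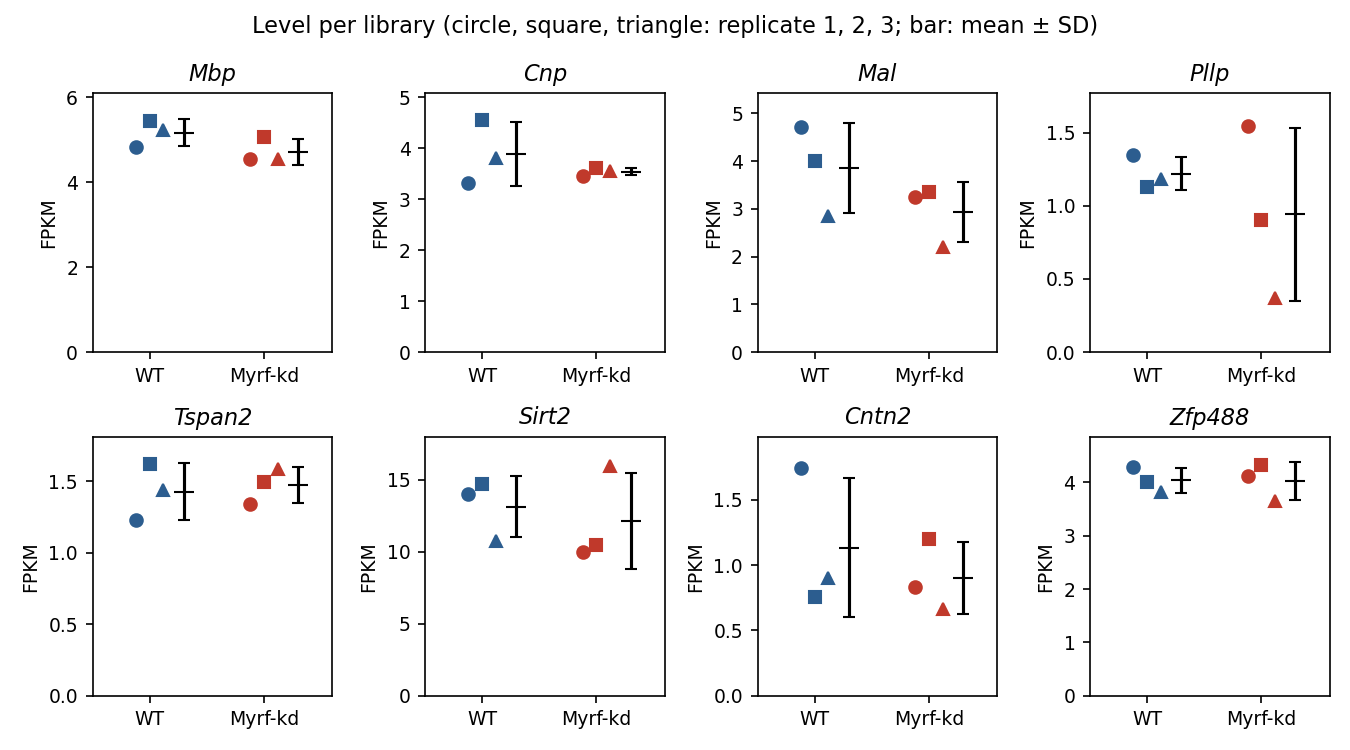
FPKM per library of 8 genes in WT (blue) and Myrf-kd (red), with circle, square and triangle for replicate 1, 2 and 3 and the mean ± SD (n = 3) as a bar. The groups overlap in all 8 panels, Mal is lowest in replicate 3 of each group, and Pllp spreads from 0.370 to 1.55 FPKM within Myrf-kd.

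The other 7 sheath proteins lay below 1 FPKM. Ermn, which encodes the cytoskeletal protein ermin of late myelination, was the most abundant of them, with Myrf-kd 1, 2 and 3 at 0.329, 0.625 and 0.654 FPKM and WT at 0.614, 0.638 and 0.686 FPKM. Between 22 and 50 fragments per library lay behind Ermn, and Myrf-kd 1 was the single low library. Mog, the surface glycoprotein of the outermost myelin layer, had 4, 6 and 8 fragments in Myrf-kd and 6, 6 and 5 in WT. Mag, an adhesion protein of the innermost layer, had 2, 4 and 2 fragments in Myrf-kd and 0, 3 and 2 in WT. Mog and Mag were thus counted in single digits in each library. Gjb1, a gap junction protein, had 1, 5 and 1 fragments in Myrf-kd and 6, 2 and 3 in WT. Mobp, an abundant cytoplasmic protein of brain myelin, had 4 fragments in Myrf-kd 2 and 0 in the other libraries. Opalin, a membrane protein of mature oligodendrocytes, had 3 in WT 2 and 0 elsewhere. Cldn11, the tight junction protein of myelin, was the only one of the 30 genes whose groups did not overlap in FPKM, against 10.7% of all genes with a fragment. It had 2, 2 and 0 fragments in Myrf-kd and 2, 2 and 5 in WT, so its counts of fragments did overlap.

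Summed over the 12 sheath proteins, Myrf-kd 1, 2 and 3 reached 14.7, 15.5 and 13.2 FPKM. The sum in WT 1, 2 and 3 was 16.5, 17.9 and 15.6 FPKM. The Myrf-kd mean was 14.5 ± 1.19 FPKM, that of WT 16.6 ± 1.18 FPKM (SD, n = 3 each), and their ratio was 87.0%. The groups were separated by the narrow gap between Myrf-kd 2 at 15.55 FPKM and WT 3 at 15.57 FPKM, and without Pllp, without Mal or without Mbp the sums overlapped. The sum of all 30 genes overlapped, with Myrf-kd at 161.8, 161.6 and 163.3 FPKM and WT at 158.6, 175.0 and 163.2 FPKM.

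Marker sums of other cells and tissues of the eye were lower in Myrf-kd without overlap for cornea and rods, and overlapped for the others. The 12 markers of the cornea and surface epithelium summed to between 0.940 and 3.79 FPKM in the Myrf-kd libraries and between 8.11 and 11.5 FPKM in those of WT, without overlap. Its 3 testable genes, Krt5, Krt12 and Aldh3a1, had fitted ratios, Myrf-kd over WT, of 0.112, 0.213 and 0.311, and 0 passed by edgeR. Genes this much lower in Myrf-kd can reach the filter on mean FPKM through WT alone. Their shared direction is therefore no separate result. Of the 12 markers, Ly6d was at 0 in all libraries. The retinal pigment epithelium is the pigmented layer behind the photoreceptors. Its markers summed to between 57.7 and 79.9 FPKM in the Myrf-kd libraries and between 73.8 and 102.8 FPKM in those of WT, with overlap. Of its 8 testable genes, 7 had lower estimates, against 49.0% of all tested genes. None of its 9 markers was at 0 in all libraries. The sum of 10 rod markers was also lower without overlap, between 7355 and 7957 FPKM in Myrf-kd and between 8089 and 10472 FPKM in WT. Lens markers were at 1.20, 0.937 and 38.8 FPKM in Myrf-kd 1, 2 and 3 and between 8.96 and 14.8 FPKM in WT, so Myrf-kd lay on both sides of WT. Melanocyte markers overlapped, at 7.66 to 16.7 FPKM in Myrf-kd and 8.61 to 11.2 FPKM in WT. So did markers of Mueller glia, at 1305 to 1405 FPKM in Myrf-kd and 1322 to 1411 FPKM in WT. Astrocyte markers were at 121.3 to 158.0 FPKM in Myrf-kd and 132.8 to 149.9 FPKM in WT. The part of these cells and tissues in the sheath sum was not tested.

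**Figure D4:**
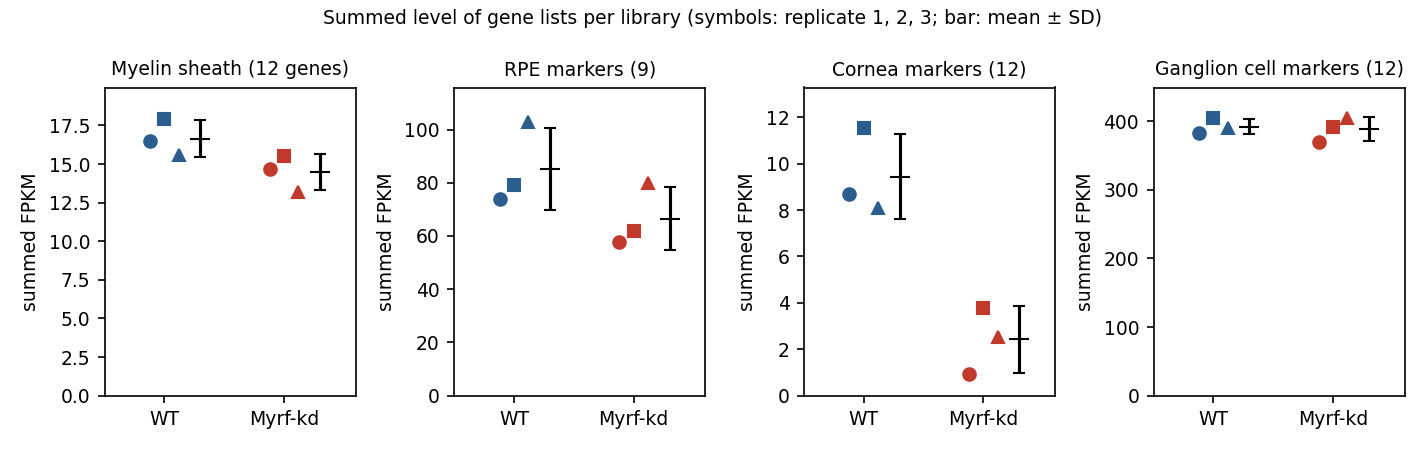
Summed FPKM per library of the 12 myelin sheath genes and of 3 marker lists, in WT (blue) and Myrf-kd (red), with the mean ± SD (n = 3) as a bar. The sheath and cornea sums do not overlap between the groups, the sums of the retinal pigment epithelium (RPE) and of ganglion cells do.

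Enzymes of myelin lipids were close to the limit of detection. Ugt8a, which makes galactosylceramide, had 7 to 13 fragments per library, and Gal3st1, which sulfates that lipid, had 5 to 9. Fa2h, which hydroxylates the fatty acids of myelin lipids, had 8, 5 and 1 fragments in Myrf-kd and 5, 8 and 5 in WT. Aspa, which breaks down N-acetylaspartate, had 12, 3 and 5 in Myrf-kd and 4, 3 and 8 in WT. All 4 overlapped between the groups, and no group stood apart in any of them. With genes from 0.1 FPKM included (21276 genes), the fitted ratio of Ugt8a was 117%, from 66.0% to 207%, and that of Gal3st1 94.6%, from 54.1% to 165%. In that fit 0 of 16 genes of the list passed, against 0.0235% of all tested genes, and 0 had an unadjusted p under 0.05, against 6.55% of all tested genes (edgeR).

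Sirt2 (ENSMUSG00000015149, chromosome 7, 28766735 to 28788660) encodes a deacetylase abundant in myelin and present in neurons. Among the 5 genes grouped as myelin lipid and metabolic enzymes, Sirt2 alone had a mean above 1 FPKM. It was at 9.95, 10.5 and 15.97 FPKM in Myrf-kd 1, 2 and 3, beside 14.0, 14.7 and 10.8 FPKM in WT 1, 2 and 3. The female library was the highest in Myrf-kd and the lowest in WT, so the male and female libraries went in opposite directions between the groups. On the log2 scale the difference, Myrf-kd against WT, was −0.51 in males and 0.55 in females, each group holding a single female library. The difference between these did not pass (1.06 by an interaction term of edgeR, unadjusted p = 0.000575, adjusted p = 0.105). The spread behind this test comes from the male libraries, and the lone female libraries are assumed to vary as they do. That term called 0 of the 11 genes, against 0.124% of all tested genes. The fitted ratio over all libraries was 91.2%, from 64.8% to 128% (adjusted p = 0.877 by edgeR). Without Myrf-kd 3 it was 76.6% (unadjusted p = 0.0380, adjusted p = 0.720 by edgeR). Myrf-kd 3 was also the library farthest from the others on the first principal component of all tested genes (28.9% of the variance), and its part in the level of Sirt2 was not tested beyond leaving it out.

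Of the 6 transcription factors, Olig1, Olig2 and Nkx2-2 were at 0 in all libraries. A count of 0 goes with an expected count of up to 3 fragments in a library (95% upper limit). For the longest transcript, 3 fragments are up to 0.0943 FPKM for Olig1, 0.0806 for Olig2 and 0.0962 for Nkx2-2 in the shallowest library. That limit covers counting error only. Nkx6-2, a homeodomain factor of the lineage, had 4 fragments in WT 3 and 0 in the other libraries. Its exons share 246 bases with Inpp5a on the opposite strand, a gene at 9.41 FPKM on average. Sox10, which acts with Myrf on myelin genes and also marks pigment cells and Schwann cells, had 8, 3 and 6 fragments in Myrf-kd and 9, 8 and 8 in WT. Myrf-kd 1, at 0.133 FPKM, lay above WT 3, at 0.123 FPKM, so the groups overlapped. The fitted ratio of Sox10 was 61.3%, from 29.7% to 127% (adjusted p = 0.782 by edgeR with genes from 0.1 FPKM).

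Zfp488 (ENSMUSG00000044519, chromosome 14, 33967070 to 33978764), a zinc finger factor that promotes oligodendrocyte maturation, stood far above the other factors. It was at 4.11, 4.32 and 3.65 FPKM in Myrf-kd 1, 2 and 3, beside 4.29, 4.01 and 3.83 FPKM in WT 1, 2 and 3, with 254 to 344 fragments per library. The groups overlapped almost fully, with a fitted ratio of 98.4%, from 83.5% to 116% (adjusted p = 0.963 by edgeR). Zfp488 lies 2854 bases from Rbp3, a photoreceptor gene on the opposite strand, and the genes point towards each other. Rbp3 averaged 834.8 FPKM, and its part in the level of Zfp488 was not tested.

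Genes of newly formed oligodendrocytes were hardly detected. Enpp6, a phosphodiesterase of cells that have just begun to differentiate, had 2 fragments each in Myrf-kd 1 and 3 and 0 in the other libraries. Bcas1, a marker of early myelinating cells, had 6 fragments in WT 1, 1 in Myrf-kd 3 and 0 elsewhere. Gpr17, a receptor of committed precursors, had 2, 7 and 4 fragments in Myrf-kd and 6, 2 and 2 in WT. Gpr17 exons share 188 bases with Lims2 on the opposite strand, a gene at 0.711 FPKM on average. The part of Lims2 in these fragments was not tested. At the counts of Enpp6, Bcas1 and Gpr17 a difference between the groups was not detectable. Over the 19 genes of the list below 1 FPKM, 77, 102 and 95 fragments were counted in Myrf-kd 1, 2 and 3 and 102, 85 and 110 in WT 1, 2 and 3. Scaled to 1000000 fragments of the library, Myrf-kd had 4.75, 6.57 and 5.61 and WT 6.23, 6.71 and 6.26, so the groups overlapped.

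Of the 3 genes of axons and their contact with glia, Nfasc and Cntnap1 had narrow intervals around equal levels, and Cntn2, near 1 FPKM, had a wide one. Nfasc (ENSMUSG00000026442, chromosome 1, 132564690 to 132741778) encodes neurofascin, with a neuronal form at initial segments and nodes and a glial form at paranodes that the table does not separate. It was at 27.2, 30.03 and 27.9 FPKM in Myrf-kd 1, 2 and 3, beside 27.7, 30.2 and 26.0 FPKM in WT 1, 2 and 3. Its fitted ratio was 100.02%, from 87.9% to 114%. Cntnap1 (ENSMUSG00000017167, chromosome 11, 101170523 to 101190724) encodes the axonal partner at paranodes. Its Myrf-kd libraries were at 12.7, 13.8 and 11.3 FPKM and its WT libraries at 12.6, 13.9 and 11.4 FPKM. Its fitted ratio was 98.6%, from 83.2% to 117%. In both genes replicate 2 was the highest library of its group. Cntn2 (ENSMUSG00000053024, chromosome 1, 132509427 to 132543256), an adhesion protein beside the paranode, had Myrf-kd libraries at 0.830, 1.20 and 0.662 FPKM and WT libraries at 1.74, 0.759 and 0.900 FPKM. WT 1 was the single high library of Cntn2. The fitted ratio was 78.5%, from 44.2% to 140%, and without WT 1 the log2 fold change turned from −0.35 to 0.086 (adjusted p = 0.798 and 0.940 by edgeR).

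The 12 markers of retinal ganglion cells, whose axons form the optic nerve, summed to between 370.1 and 405.0 FPKM in the Myrf-kd libraries and between 382.1 and 404.0 FPKM in those of WT. The median log2 fold change of their 12 testable genes was −0.029, and 0 passed by edgeR, also at an unadjusted p under 0.05. Of 12 other genes of the node and paranode, such as Cntn1 and Epb41l3, 8 had lower and 4 higher estimates, with a median of −0.021, and 0 passed (0 at an unadjusted p under 0.05).

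Plekhb1 (ENSMUSG00000030701, chromosome 7, 100642892 to 100662414), a membrane adaptor known from rods and cones as well as oligodendrocytes, was the most abundant gene of the list. It was at 91.7, 85.6 and 90.1 FPKM in Myrf-kd 1, 2 and 3, beside 81.0, 92.8 and 94.0 FPKM in WT 1, 2 and 3. Myrf-kd lay within the range of WT, with a fitted ratio of 98.5%, from 85.9% to 113% (adjusted p = 0.959 by edgeR). It ranked 269 by mean FPKM among the 55450 genes, where Mbp ranked 7698. Over the 6 libraries its coefficient of variation was 5.56%, the lowest of the 27 detected genes, beside 5.81% for Nfasc and 6.58% for Zfp488.

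Other genes known from the lineage were examined in lists chosen by name. Which cells of the retina supplied their RNA was not tested. Of 10 genes of oligodendrocyte precursors, 7 were testable, with 5 higher and 2 lower estimates, and 0 passed by edgeR. At an unadjusted p under 0.05 the precursor list had 1 of 7 genes, against 7.49% of all tested genes, the factor gene Sox8 (Myrf-kd 4.61 ± 0.334 FPKM, WT 3.62 ± 0.538 FPKM; SD, n = 3 each). Of 24 further genes of mature oligodendrocytes, Myrf among them, 10 were testable, with 6 lower and 4 higher estimates, and 0 passed. The median of those 10 was −0.021, and 1 of 10 had an unadjusted p under 0.05 by edgeR, against 7.49% of all tested genes, the transferrin gene Trf. Trf was at 31.1, 31.4 and 29.8 FPKM in Myrf-kd 1, 2 and 3 and at 35.2, 42.6 and 40.01 FPKM in WT 1, 2 and 3, lower in Myrf-kd without overlap, as 14.5% of all tested genes were without overlap in either direction. Its log2 fold change was −0.37 and did not pass (unadjusted p = 0.00386, adjusted p = 0.666 by edgeR). Klk6, a protease gene of mature oligodendrocytes, was at 0 in all libraries. Of 10 Schwann cell genes 4 were testable and 0 passed (0 at an unadjusted p under 0.05 by edgeR).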

How the data were processed

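RNA of retina was measured in 6 libraries, grouped by the genotype in the sample titles. Per the submitters' processing notes, the tools were StringTie 1.3.0, HISAT2 2.0 and Bowtie 0.12.2 on GRCm38, whose roles are not stated. The authors deposited FPKM and counts per gene, per the file headers, with 0.0001 FPKM standing for no signal (read here as 0). The counts deposited by the authors were treated as estimated counts: they are whole numbers proportional to FPKM times length, and 4 units were taken as 1 fragment, since more values were listed at 4 than at any of 1 to 12 units. Rounding changed none.

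Genes with a mean of at least 1 FPKM (13673) were tested with edgeR 4.0.16 (quasi-likelihood, TMM factors, genotype as the only term) at an adjusted p of 0.05 (Benjamini-Hochberg, two-sided). DESeq2 1.42.0, limma 3.58.1 on log2(FPKM + 1), other filters, scalings and covariates (sex among them), and the omission of each library were alternatives. The common biological coefficient of variation was 20.3%. Intervals are 95% intervals of the fitted ratio. An interaction of genotype and sex was added after seeing the data. No library pair agreed within sampling noise (the smallest chi-square over its degrees of freedom was 15.3). Coordinates are those of the table, and neighbours come from GENCODE M21.

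All 30 genes are accounted for. From other lists the text names Myrf and up to 3 genes per list with the smallest unadjusted p, and beyond that rule Klk6, Ly6d and Tmem88b, chosen after their values were seen. The genes and lists were chosen with earlier results of these data known.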

Additional observations from a re-analysis of the deposited data

Results flagged for a closer look

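Sirt2 had opposite genotype differences in male and female libraries, with every male Myrf-kd library below both male WT libraries and the female Myrf-kd library above the female WT library. The female difference exceeded the male one by 1.06 on the log2 scale (interaction term of edgeR, unadjusted p = 0.000575, adjusted p = 0.105 over 13673 genes, so it did not pass). Each genotype holds 1 female library, and sex was read from the data, not from the labels. The spread behind this test therefore comes from the male libraries alone, and the lone female libraries are assumed to vary as they do. The female Myrf-kd library is also the one farthest from the others on the first principal component.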

How the results depend on the processing

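Over 16 alternatives, 0 of the tested genes of the list passed (edgeR, DESeq2 or limma), with the smallest adjusted p at 0.539. The count over all genes was 6. It was 2 with a mean of at least 5 FPKM, 0 with a replicate block and 53 by DESeq2, and 9 to 16 with each library left out in turn. The median log2 fold change of the list was −0.0062 with a mean of at least 5 FPKM, where 4 of its genes were left, and −0.14 to −0.018 with each library left out. Mbp, Cnp, Mal, Pllp and Sirt2 kept a lower estimate in each alternative that tested them, but with each library left out it lay from −0.95 to −0.0079 for Pllp (−0.39 with all libraries), −0.27 to −0.015 for Cnp (−0.16), −0.38 to −0.012 for Sirt2 (−0.13), −0.58 to −0.24 for Mal (−0.41) and −0.21 to −0.10 for Mbp (−0.15). The estimate of Nfasc, at 0.00022, was −0.0036 with no filter, −0.0041 from 0.1 FPKM, −0.0024 by DESeq2 and −0.0025 with median-of-ratios scaling. With each library left out, the log2 fold change lay from −0.049 to 0.070 for Nfasc, −0.096 to 0.018 for Plekhb1, −0.088 to 0.066 for Cntnap1, −0.081 to 0.14 for Tspan2, −0.070 to 0.042 for Zfp488 and −0.61 to 0.086 for Cntn2. The cause of these changes was not tested.

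Libraries of the same number had deviations correlated at −0.042, 0.082 and 0.14 for numbers 1, 2 and 3. Libraries of different number were correlated at −0.14 to 0.088. Only number 3, the female library of each group, lay above that range. The numbers are not taken as pairs. With the replicate block 0 genes of the list passed, and Mal had an adjusted p of 0.819 by edgeR. The sums of the sheath genes with TMM-scaled FPKM, and without Pllp, Mal or Mbp, were added after seeing the data. With TMM scaling the sheath sums did not overlap, at most 15.2 FPKM in Myrf-kd and at least 15.8 FPKM in WT. Of the list, 19 genes lay below 1 FPKM, and 18 of them had at most 13 fragments in any library, which limits what can be seen there.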

Other observations

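Tmem88b, a membrane protein gene among the further markers of mature oligodendrocytes, was singled out after its values were seen. It had 38, 27 and 29 fragments in Myrf-kd 1, 2 and 3 and 12, 9 and 17 in WT 1, 2 and 3, without overlap, where 13.4% of all genes from 0.1 FPKM did not overlap. Its fitted level was 2.34 times that of WT with genes from 0.1 FPKM included, and it did not pass (unadjusted p = 0.00291, adjusted p = 0.759 by edgeR). Of the 30 genes of the list, none with more than 10 fragments in a library showed such a separation.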
